A study of Rattus norvegicus with 12 samples.

Results

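Liver RNA of rats given didymin, a flavonoid glycoside of citrus fruit, was compared between 2 treatment arms of one study. The comparison used 6 of the study's 12 RNA-seq libraries: 3 of arm D (D.1, D.4 and D.7) and 3 of arm G (G.1, G.3 and G.4). All were from Sprague Dawley rats on a high-fat diet, given for 8 weeks in the model group. The titles name a low and a high dose, and no label ties a letter to a dose, so neither the doses nor their order can be used here. The other 6 libraries, 3 of untreated high-fat livers (model) and 3 of normal livers given saline, served as reference levels. The question was where the livers of the treated arms differ from each other. The labels call the samples replicates without saying that each is a separate animal, so tests measure the spread between these libraries.

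In the liver, hepatocytes make plasma proteins, lipids and bile acids and receive growth hormone through the kinase JAK2 and the factor STAT5, whose action the repressor Bcl6 opposes at many shared sites. Kupffer cells, the resident macrophages, line the sinusoids together with a fenestrated endothelium. Macrophages, dendritic cells and B cells show peptides to helper T cells on class II histocompatibility molecules, called RT1-B and RT1-D in the rat. In a whole-tissue library, fewer cells of a type and less RNA per cell cannot be told apart.

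Depth was alike in the 6 libraries, with 12469914 to 15020140 counts, but 1 library stood apart. In G.3 the 13 genes of the mitochondrial genome took 61.0% of the counts, against 5.62% to 16.02% in the other 5 libraries, and 4869054 counts were left for nuclear genes. Over 12355 genes, the Pearson correlation of log2 CPM (counts scaled to a fixed library size, with TMM factors) of G.3 with the other 5 was 0.8528 to 0.8756. Among those 5 libraries it was 0.9537 to 0.9713 between arms, 0.9475 to 0.9757 within arm D and 0.9698 between G.1 and G.4. The first principal component held 58.8% of the variance and set G.3 apart, and the second, with 17.6%, set D.1 apart. Livers in both arms carried hepatocyte RNA: albumin (Alb) stood at 24398 CPM in G.3 and at 91238 to 104910 CPM in the others. For gene lists and named genes, the value without a library is given where leaving it out moved the value by over 1.5 times or turned its direction, and for the leading results without G.3 in any case.

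No gene passed an adjusted p of 0.05 between the arms by edgeR's quasi-likelihood test (0 of 12355, 0%). Without adjustment, 423 genes (3.42%) had a p under 0.05, of which 303 were higher and 120 lower in arm G. Without G.3 this number was 187, of which 39 were higher and 148 lower. DESeq2 called 5 genes (0.0405%), with Bcl6 and Prlr higher and Gfra1, Hsd17b2 and Gpm6a lower in arm G. Neither limma-voom nor limma-voom with sample quality weights called a gene (0 each), and their counts without adjustment were 200 and 931. Over all genes the median log2 fold change, arm G minus arm D, was -0.01, with 6048 genes higher and 6307 lower in arm G. The 3 arm G libraries lay all above the 3 arm D libraries in 504 genes (4.08%) and all below them in 414 (3.35%).

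Bcl6, the repressor that opposes STAT5, had the smallest p of all genes tested. Libraries D.1, D.4 and D.7 held 7.59, 8.95 and 5.93 CPM of it, against 70.8, 71.9 and 26.5 CPM in G.1, G.3 and G.4. The arms did not overlap, and the lowest arm G library was above all 3 model libraries (11.2 to 22.1 CPM) and all 3 normal ones (10.2 to 14.4 CPM). The log2 fold change was 2.91 (SE 0.40, adjusted p = 0.114 by edgeR and 2.89e-08 by DESeq2), and it was 2.68 without G.3. With edgeR the adjusted p was 0.00765 without G.4 and 0.0402 with no filter on low counts. It was 0.541 without G.3, 0.546 without G.1, 0.727 without D.4, 0.936 without D.1 and 0.9998 without D.7. In the fit of the 6 arm libraries alone it was 0.997. Against the model, a group both comparisons share, the fitted difference of Bcl6 was -1.06 (SE 0.38) in arm D and 1.85 (SE 0.39) in arm G.

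Prlr, the prolactin receptor, was low in arm D, with 0.071, 0.115 and 0.968 CPM (1, 2 and 16 counts). In arm G it stood at 1.41, 3.18 and 13.6 CPM (22, 28 and 196 counts). All 3 arm G libraries were above all 3 of arm D, but they spanned a wide range, and the highest was the sole one within the range of normal liver (11.5 to 47.2 CPM). The log2 fold change of Prlr was 3.93 (SE 1.01, adjusted p = 0.999 by edgeR and 0.038 by DESeq2). It was 4.21 without G.3 and 2.47 without G.4. RefSeq (build GRCr8) lists 2 start sites of Prlr, and a STAT-type motif, TTCNNNGAA, lies in the 250 bases before one of them. The motif reads the same on both strands, and 7.67% of 33469 promoters hold it in a window of this length. The stretch around it, at chr2:60909453-60909522 on the plus strand, is shown because it carries the one match among the 4 called genes searched (Bcl6, Gfra1, Gpm6a and Prlr), with the motif in capitals.
Prlr: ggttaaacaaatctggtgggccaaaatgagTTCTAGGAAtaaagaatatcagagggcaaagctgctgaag
The windows of Bcl6, Gfra1 and Gpm6a held no such letters. Cish, a STAT5-induced feedback inhibitor of cytokine signalling, held 4 matches.

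Hsd17b2, the enzyme that oxidises oestradiol and testosterone to weaker steroids, went the other way. It stood at 134, 172 and 115 CPM in arm D and at 57.0, 51.4 and 45.4 CPM in arm G. The arms did not overlap, and normal liver stood at 97.8 to 115 CPM. The log2 fold change of Hsd17b2 was -1.45 (SE 0.29, adjusted p = 0.999 by edgeR and 0.00481 by DESeq2), and -1.47 without G.3. Its difference from the model was 0.94 (SE 0.28) in arm D and -0.51 (SE 0.28) in arm G.

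Gfra1, a receptor subunit for glial cell line-derived neurotrophic factor, was even across arm D at 21.6, 23.6 and 20.03 CPM. In arm G it was at 0.192, 1.81 and 3.95 CPM, which is 3, 16 and 57 counts. Every arm G library was below every model library (7.29 to 16 CPM), and every arm D library was above them. The log2 fold change was -3.45 (SE 0.71, adjusted p = 0.999 by edgeR and 0.00144 by DESeq2), and -3.42 without G.3. Gpm6a, a membrane glycoprotein best known from neurons, stood at 19.9, 9.29 and 16.9 CPM in arm D and at 2.30, 4.20 and 0.624 CPM in arm G, without overlap. Its log2 fold change was -2.73 (SE 0.65, adjusted p = 0.999 by edgeR and 0.038 by DESeq2), and -3.39 without G.3. The plot of CPM for 6 leading genes shows these levels in all 4 groups.

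**Figure D1:**
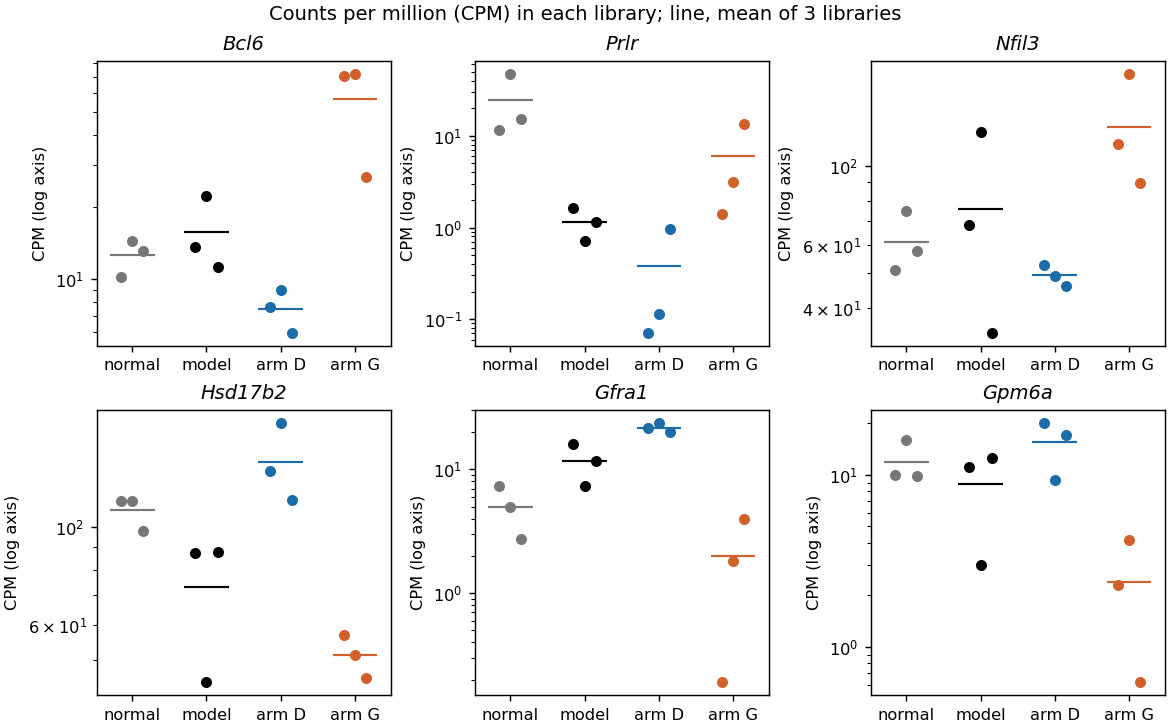
CPM (log axis) of 6 genes in each of the 12 libraries, by group, with a line at the mean of 3 libraries. In each of the 6 genes the arm G points lie all above or all below the arm D points, as with Bcl6 at 26.5 to 71.9 CPM against 5.93 to 8.95. The genes were chosen for a small p between these same libraries, which favours such a separation.

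None of the other genes with the smallest p in each direction passed edgeR or DESeq2. Nfil3, a basic leucine zipper repressor linked to the circadian clock, was at 52.8, 49.2 and 46.1 CPM in arm D and 115, 181 and 89.5 CPM in arm G (log2 fold change 1.38, SE 0.41). Lonrf3, a RING finger protein, was at 1.63, 1.09 and 1.45 CPM in arm D and 5.49, 5.78 and 2.77 in arm G (1.74, SE 0.40). Stambpl1, a deubiquitinase, was at 1.84, 2.18 and 2.12 CPM in arm D and 6.64, 9.19 and 5.06 in arm G (1.76, SE 0.47). The arms did not overlap in these 3 genes, beside 4.08% of all genes with every arm G library above arm D. Choosing genes by p from the same libraries favours this. Casq1, a calcium store protein of skeletal muscle, rested on 0, 1 and 4 counts in arm D and 15, 60 and 8 in arm G (log2 fold change 4.61, SE 1.31, and 2.77 without G.3). Col20a1 and Tor3a differed less without G.3: their log2 fold changes were 4.19 (SE 1.24) and 2.41 (SE 0.76), and 2.39 and 1.58 without it.

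On the lower side, Lrrc8c, a subunit of the volume-regulated anion channel, was at 10.8, 13.7 and 13.5 CPM in arm D and 4.73, 2.61 and 7.21 in arm G (log2 fold change -1.37, SE 0.37). Ppt1, a lysosomal thioesterase that removes palmitate from proteins, was at 27.9, 86.6 and 35.8 CPM in arm D and 19.4, 15.1 and 25.3 in arm G (-1.33, SE 0.39, and -0.68 without D.4, the library at 86.6). The linker histone gene H1fx was at 16.5, 10.6 and 10.7 CPM in arm D and 5.37, 4.76 and 5.96 in arm G (-1.22, SE 0.36). These 3 genes, also chosen by p, did not overlap between arms, beside 3.35% of all genes with every arm G library below arm D. LOC100360575 and AC126581.1, known by locus names alone, had log2 fold changes of -2.99 (SE 0.78) and -3.07 (SE 0.93), both at under 4 CPM in all 6 libraries.

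Genes of antigen presentation stood lower in arm G than in arm D. For 12 of 12 tested genes of the list the fold change was below 0, the median log2 value being -0.84 beside -0.01 over all genes, and none passed the test. In 4 of the 12, beside 3.35% of all genes, every arm G library lay below every arm D library, and those 4 were the class II chain genes RT1-Ba, RT1-Bb, RT1-Da and RT1-Db1. The 120 bases before their RefSeq start sites (GRCr8) are shown because these 4 genes sit together on chromosome 20 and share the promoter element known as the Y box, whose core CTGATTGG is in capitals.
RT1-Ba: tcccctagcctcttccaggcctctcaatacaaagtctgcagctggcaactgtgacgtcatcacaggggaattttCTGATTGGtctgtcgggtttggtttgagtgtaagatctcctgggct
RT1-Bb: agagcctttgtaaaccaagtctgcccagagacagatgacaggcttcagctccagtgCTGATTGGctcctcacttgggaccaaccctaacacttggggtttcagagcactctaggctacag
RT1-Da: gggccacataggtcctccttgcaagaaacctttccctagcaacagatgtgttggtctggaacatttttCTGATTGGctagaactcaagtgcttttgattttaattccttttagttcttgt
RT1-Db1: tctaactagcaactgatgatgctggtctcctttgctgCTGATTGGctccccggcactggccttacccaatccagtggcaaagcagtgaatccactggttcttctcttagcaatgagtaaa
The stretches lie at chr20:4576937-4577056 (plus strand), chr20:4604119-4604238 (minus), chr20:4515295-4515414 (plus) and chr20:4560163-4560282 (minus), each written on the strand of its gene. Searched on both strands in the 250 bases before the start, CTGATTGG occurs in 3.19% of 33469 promoters and once in each of these 4. It begins 46, 64, 52 and 83 bases before the start in the order shown. RT1-Ba also holds TGACGTCA, a cyclic AMP response element present in 1.59% of the promoters. RT1-DMa and Cd74, searched in the same way, hold none of the 3 motifs, so the Y box letters were not found in every RT1 gene searched. A match describes the letters and was not tested as a site.

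RT1-Ba, the alpha chain of RT1-B, stood at 146, 242 and 158 CPM in arm D and at 58.4, 53 and 113 CPM in arm G. RT1-Bb, its beta chain, stood at 102, 217 and 109 CPM in arm D and at 41.3, 37.7 and 76.1 in arm G. In both genes D.4 was highest and G.4 was the arm G library nearest to arm D. The log2 fold changes were -1.28 (SE 0.40) for RT1-Ba and -1.46 (SE 0.47) for RT1-Bb, with an adjusted p of 0.999 by edgeR, and -1.11 and -1.30 without G.3. RT1-Da, the alpha chain of RT1-D, stood at 159, 343 and 297 CPM in arm D and at 96.2, 117 and 150 CPM in arm G (log2 fold change -1.14, SE 0.47). RT1-Db1, a beta chain of RT1-D, stood at 123, 238 and 171 CPM in arm D and at 51.5, 84.8 and 90.4 in arm G (-1.23, SE 0.52). In all 4 genes D.1 was the lowest library of arm D. Similar copies and alleles of these genes could share or lose reads when counted, so their levels are uncertain.

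Cd74, the invariant chain that escorts class II molecules, was at 404, 905 and 829 CPM in arm D and 263, 384 and 404 in arm G (-1.02, SE 0.49). Its arms met at 404 CPM, in D.1 and G.4. Tap1, which carries peptides to class I molecules, was at 42.4, 55.5 and 92.9 CPM in arm D and 32.4, 41.1 and 44.6 in arm G (-0.69, SE 0.28, and -0.32 without D.7, the library at 92.9). For the whole list, the mean log2 CPM of arm D was 6.71, 7.27 and 7.25 (D.1, D.4, D.7) and that of arm G was 6.0, 5.93 and 6.67 (G.1, G.3, G.4), so the arms did not overlap, though D.1 and G.4 nearly met. The list's median was -1.11 without G.3, with 11 of 12 lower, and -1.02 without D.1. Set against the model libraries that both share, it was 0.84 in arm D and -0.03 in arm G. Model liver M.5, at 6.79, was above D.1.

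**Figure D2:**
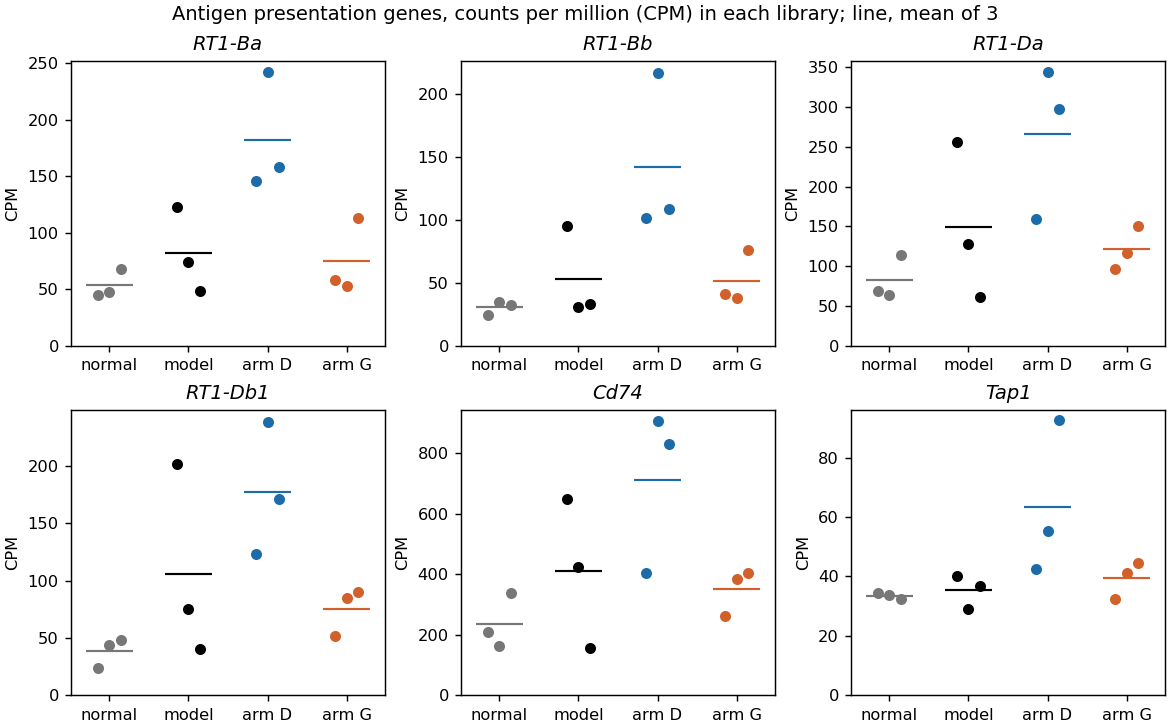
CPM of 4 class II chain genes, Cd74 and Tap1 in each library, by group, with a line at the mean of 3 libraries. The arm G points of the 4 class II chain genes lie below all arm D points, for RT1-Ba at 53 to 113 CPM against 146 to 242.

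Kupffer cell markers were lower in arm G for all 19 genes of the list, at a median of -0.75 on the log2 scale, and 0 passed the test. Adgre1, the macrophage antigen F4/80, was at 14.0, 55.7 and 34.9 CPM in arm D and 15.7, 10.4 and 16.6 in arm G (log2 fold change -1.29, SE 0.43, and -0.78 without D.4). Csf1r, the receptor that sustains macrophages, was at 51.2, 156 and 124 CPM in arm D and 66.6, 39.1 and 69.3 in arm G (-0.92, SE 0.38, and -0.59 without D.4). In both genes D.4 and D.7 were above every arm G library while D.1 lay among them. Cd5l, a secreted macrophage protein, followed the same order at 67.3, 270 and 215 CPM in arm D and 111, 27.2 and 96.7 in arm G (-1.24, SE 0.58), and Cd163, the haemoglobin scavenger receptor, had -0.70 (SE 0.42), with -0.17 without D.4 and -1.06 without D.1. Cd68, a lysosomal macrophage protein, was at 31.7, 60.7 and 55.1 CPM in arm D and 28.2, 18.6 and 37.9 in arm G (-0.80, SE 0.35). Mrc1, the mannose receptor, was the only member of the list without overlap, at 63.4, 81.6 and 70.4 CPM in arm D and 56.0, 62.0 and 54.7 in arm G (-0.32, SE 0.20). That is 1 of 19 genes, near the 3.35% of all genes in which every arm G library lay below arm D.

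The mean log2 CPM of the 19 Kupffer genes was 4.87 in D.1 but 6.43 and 5.77 in D.4 and D.7, and 5.21, 4.49 and 5.22 in arm G. D.1 thus lay within arm G. The list's median was -0.54 without G.3, with all 19 genes lower, -1.03 without D.1 and -0.37 without D.4, with 18 of 19 lower. Against the shared model it was 1.36 in arm D and 0.45 in arm G. Markers of monocytes and lipid-associated macrophages had a median of -0.75, with 5 of 6 tested genes lower. Gpnmb, a glycoprotein of lipid-laden macrophages, was at 7.38, 34.2 and 31.9 CPM in arm D and 15.3, 4.08 and 11.8 in arm G (-1.23, SE 0.60). Fcgr3a and Lgals3 had log2 fold changes of -1.0 (SE 0.54) and -0.72 (SE 0.40), and Fcgr3a had -0.55 without D.7 and -0.65 without G.3.

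Receptors and signals that macrophages use were chosen after their values were seen, apart from Tlr4. Tlr4, which senses bacterial lipopolysaccharide, was at 1.99, 3.96 and 5.14 CPM in arm D and 1.66, 0.794 and 2.29 in arm G (log2 fold change -1.20, SE 0.58). Tlr2, a receptor for bacterial lipoproteins, was at 2.48, 7.97 and 8.84 CPM in arm D and 3.0, 2.16 and 3.12 in arm G (-1.21, SE 0.49). Nlrp3, the inflammasome sensor, had -1.07 (SE 0.48), and -0.64 without D.4. These 3 genes repeated the place of D.1 among the arm G libraries. Ccl2, the monocyte chemokine, was low throughout at 1.99, 2.01 and 2.84 CPM in arm D and 0.958, 1.02 and 1.11 in arm G (-1.14, SE 0.54). Vcam1, an adhesion molecule, was at 13.0, 17.8 and 21.4 CPM in arm D and 9.33, 9.07 and 12.4 in arm G (-0.76, SE 0.33). Ccl2 and Vcam1 did not overlap between arms, 2 of 30 genes of the list, beside 3.35% of all genes. In 1 other gene of the list all arm G libraries lay above arm D, beside 4.08% of all genes. The whole list of 30 such genes split 13 higher and 17 lower, with a median of -0.15. The genes named from it were all among the lower ones. At an unadjusted edgeR p under 0.05 the list had 1 gene higher and 3 lower, beside 303 and 120 over all genes. The median was -0.38 without G.3 (21 lower) and -0.33 without D.1 (19 lower), but -0.08 without D.4 and -0.06 without D.7 (16 lower each). Hepatocyte markers did not move with these lists in one direction. Of 16, 13 were lower in arm G with a median of -0.15, and 3 were lower with a median of 0.22 without G.3. The median was -0.04 without D.1, -0.30 without G.1 and -0.43 without G.4. Their part in the macrophage result was not tested.

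Sinusoidal endothelial genes also stood lower in arm G, in 13 of 17 with a median of -0.32, and none passed. In 5 members, Cdh5, Dnase1l3, Eng, Flt1 and Kdr, all arm G libraries lay below arm D, beside 3.35% of all genes. Cdh5, the endothelial cadherin, was at 31.2, 46.9 and 38.7 CPM in arm D and 24.7, 15 and 27.9 in arm G (log2 fold change -0.79, SE 0.27). Dnase1l3, a secreted nuclease, was at 34.2, 42.1 and 44.1 CPM in arm D and 22.3, 17.4 and 33.5 in arm G (-0.72, SE 0.30). In these genes G.3 was lowest and G.4 highest of arm G. Eng, a coreceptor for transforming growth factor beta, and the vascular growth factor receptors Flt1 and Kdr had -0.50 (SE 0.27), -0.58 (SE 0.42) and -0.31 (SE 0.25). Without G.3 Flt1 had -0.21 and Kdr -0.20. The list mean was 5.0, 4.96 and 5.14 log2 CPM in arm D and 4.72, 4.32 and 4.90 in arm G, without overlap, and the median was -0.27 without G.3 and -0.65 without G.4. Beside the shared model it was 0.63 in arm D and 0.16 in arm G.

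Extracellular matrix genes split 9 higher and 21 lower, with a median of -0.24, and -0.35 without G.3 with 25 lower. The list mean was 3.79, 3.66 and 3.93 log2 CPM in arm D and 3.56, 3.65 and 3.53 in arm G, so the arms did not overlap but D.4 and G.3 nearly met. Sparc, a collagen-binding matrix protein, was at 95.1, 86.9 and 97.0 CPM in arm D and 72.8, 53.2 and 84.4 in arm G (log2 fold change -0.41, SE 0.26, and -0.26 without G.3). Tgfb1, the profibrotic cytokine, had -0.69 (SE 0.35). Stellate cell markers, whose cells make much of that matrix, had a median of -0.23, with 10 of 13 lower, -0.31 without G.3, and -0.12 without D.1 with 8 lower.

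**Figure D3:**
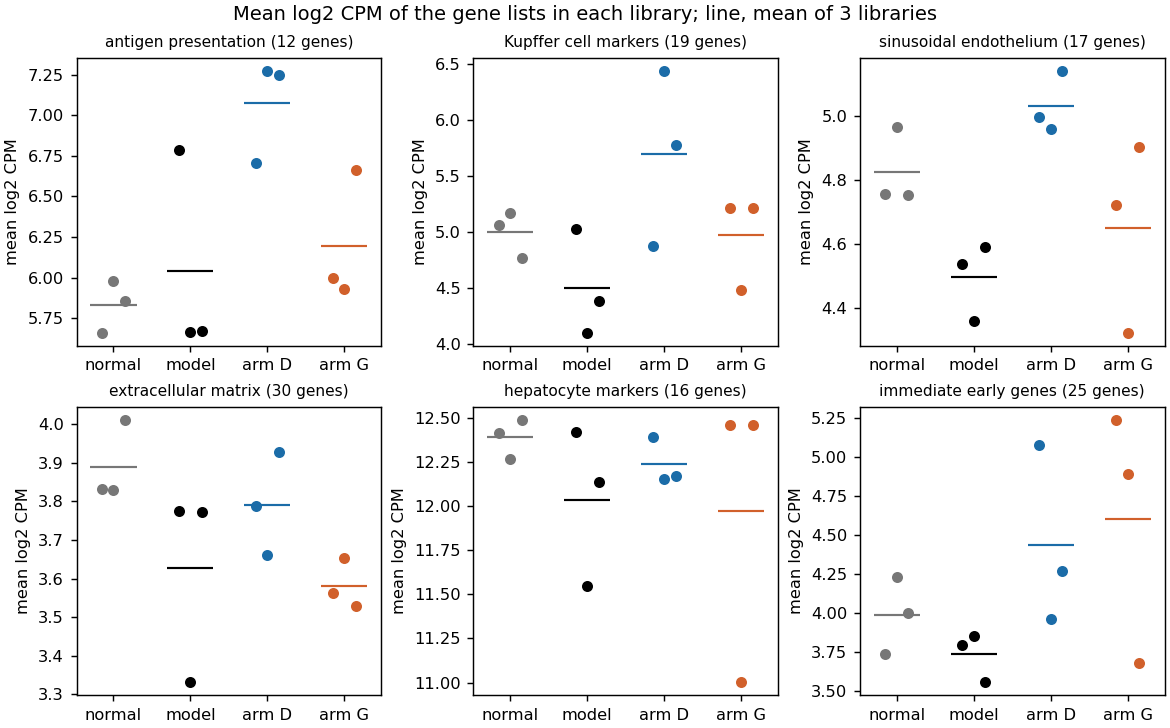
Mean log2 CPM of 6 gene lists in each library, by group, with a line at the mean of 3 libraries. The arms do not overlap in antigen presentation, sinusoidal endothelium and extracellular matrix, while D.1 lies among the arm G points for Kupffer markers and G.3 is lowest for hepatocyte markers, at 11.

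Cell cycle genes were lower in 22 of 30, with a median of -0.39, and in 27 of 31 with a median of -0.74 without G.3, where 1 more gene was tested. Without D.4 the median was -0.12, with 20 of 30 lower, and the library means of the arms overlapped. Mki67, a proliferation marker, was at 1.35, 5.11 and 4.24 CPM in arm D and 1.09, 2.16 and 1.80 in arm G (log2 fold change -1.10, SE 0.57). Nusap1, a spindle protein, had -1.52 (SE 0.77) from 10, 33 and 21 counts in arm D and 2, 7 and 7 in arm G. Top2a and Tpx2, of chromosome untangling and spindle assembly, had -0.85 (SE 0.56, and -0.55 without D.4) and -0.68 (SE 0.45). As with the Kupffer genes, D.4 and D.7 held the highest Mki67. No gene of this list separated the arms completely.

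The list of growth hormone and sex-biased genes, which holds Bcl6, Prlr and Hsd17b2, had no common direction. Of 20 tested, those 3 included, 8 were higher and 12 lower in arm G, with a median of -0.27, and 10 and 10 with a median of 0.00 without either G.3 or D.7. Without D.1 the median was -0.14. Stat5a, which carries the growth hormone signal, was at 5.32, 6.77 and 6.78 CPM in arm D and 7.60, 17.7 and 8.11 in arm G (log2 fold change 0.82, SE 0.39, and 0.30 without G.3). Cux2, a female-biased liver repressor, had 1.71 (SE 1.01), and 0.08 without G.3, the library with its highest level (4.54 CPM), and 2.99 without D.4. Cish, named after its values were seen, was at 8.37, 4.36 and 10.1 CPM in arm D and 2.24, 4.54 and 3.95 in arm G (-1.10, SE 0.72), with overlap. Cyp2c11, the male-specific cytochrome, had -0.69 (SE 0.47), with -0.33 without G.3 and -0.37 without D.1. None of Stat5a, Cux2, Cish and Cyp2c11 passed by edgeR or DESeq2.

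Clock genes, which follow the hour of sampling in liver, split 10 higher and 8 lower with a median of 0.17. The median was 0.02 without G.3 and without D.4, 0.09 without G.4 and -0.11 without G.1. Besides Nfil3, 3 genes separated the arms, which makes 2 above and 2 below of 18, beside 4.08% and 3.35% of all genes. Arntl, the positive arm of the clock also called Bmal1, was at 24.5, 17.4 and 17.3 CPM in arm D and 33.5, 28.2 and 25 in arm G (log2 fold change 0.55, SE 0.26). Nr1d1, the repressor REV-ERB alpha that acts on Arntl, was at 33.3, 37.9 and 43.6 CPM in arm D and 31.8, 15.2 and 16.6 in arm G (-0.85, SE 0.52). Nr1d2, its paralog, had -0.30 (SE 0.21), and Dbp, a clock output factor, -0.81 (SE 0.39, and -0.51 without G.1). Arntl and Nr1d2 were named after their values were seen. The hour of sampling is not given in the sources used here.

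For 4 lipid gene lists the medians were small with all libraries and positive without G.3. The median was 0.03 for cholesterol synthesis (21 genes), -0.01 for fatty acid synthesis (18), 0.05 for fatty acid oxidation (29) and 0.08 for triglyceride and droplet genes (20). Without G.3 these were 0.21 with 17 higher, 0.12 with 12 higher, 0.28 with 27 higher and 0.16 with 14 higher. Without D.1 they were 0.12, -0.11 with 12 lower, 0.11 and 0.10. Lipoprotein genes (19) and bile acid genes (23) had medians of -0.09 and -0.12. These were 0.16 and 0.08 without G.3, and -0.02 and -0.04 without D.1. For the lists of this paragraph, medians without any of the other arm libraries were not computed. Scd, the stearoyl-CoA desaturase, stood apart at 430, 252 and 520 CPM in arm D and 150, 92.1 and 194 in arm G, without overlap (log2 fold change -1.46, SE 0.79, adjusted p = 0.999). Mlxipl, the carbohydrate-responsive factor ChREBP, was at 28.5, 22.9 and 30.1 CPM in arm D and 32.1, 102 and 31 in arm G (1.01, SE 0.43), and 0.20 without G.3, the library at 102. The 28 tested genes of a list of key liver genes, these 2 among them, spanned -1.46 to 1.01, with 14 higher, 14 lower and 0 called.

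Several positive medians changed with single libraries. The 13 mitochondrial genome genes had a median of 2.01, and -0.42 without G.3. The 11 cholangiocyte genes had 0.26, and -0.36 without G.3, and 0.04 to 0.68 without each of the other arm libraries. The 6 erythroid genes had 0.28, and -0.25 without G.3. Their median was -0.002 without D.4, -0.04 without D.7, 0.43 without G.4 and 0.82 without D.1. Neutrophil markers had 1.28 with 4 of 5 higher, and 0.47 without G.3: S100a9, a granulocyte calcium-binding protein, was at 5.61, 5.39 and 3.69 CPM in arm D and 4.22, 22.2 and 9.49 in arm G (log2 fold change 1.28, SE 0.83, and 0.47 without G.3). Its partner S100a8 had 1.42 (SE 0.97), and 0.81 without G.3. B and plasma cell genes had 0.33, with 4 higher and 4 lower, 0.09 without G.3, and 0.61 to 0.93 without each of the other arm libraries. Over all 43 lists, arm G lay below arm D in the means of all libraries for 3 lists, above for 0, and overlapped in 40.

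**Figure D4:**
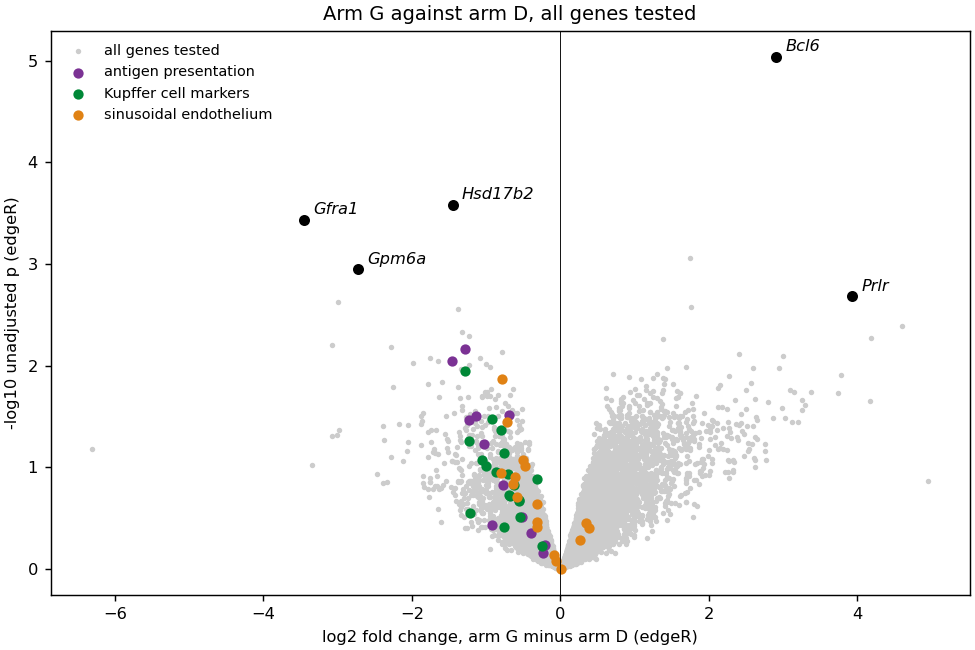
Each point is 1 of 12355 genes by its log2 fold change, arm G minus arm D, and the -log10 of its unadjusted edgeR p, with 3 lists coloured and the 5 genes called by DESeq2 labelled. Bcl6, at 2.91, stands highest, and all antigen presentation and Kupffer points lie left of 0.

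**Figure D5:**
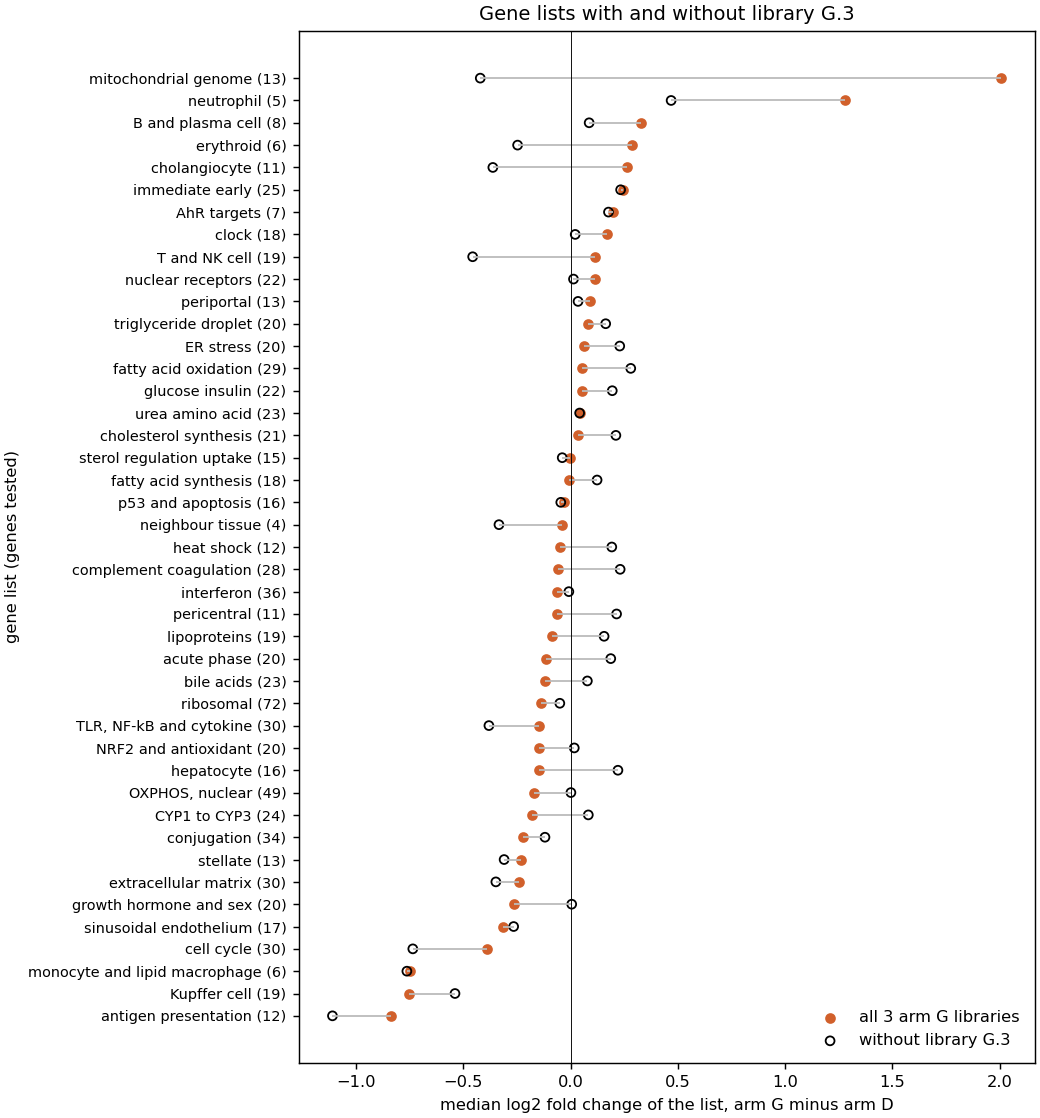
Median log2 fold change of each of 43 gene lists, arm G minus arm D, with all libraries (filled) and without G.3 (open). The antigen presentation median is -0.84 filled and -1.11 open, and the mitochondrial genome moves from 2.01 to -0.42.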

How the data were processed

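Liver total RNA was taken with Trizol and sequenced after NEBNext Ultra library preparation, per the labels' protocols. The values are raw read counts per gene in the deposited tables, per the file headers, each table setting 1 group of 3 libraries against the 3 model libraries. The 3 tables were joined on the gene (16558 genes, 0 where a table does not list one). Among tools and builds, the submitters' processing notes list DESeq2 and mm9, a build of mouse, whereas the gene names are of rat. Aligner, counting tool and use of strand: not given in the sources used here. No file coordinates are printed. Another 36 per-sample columns were not used.

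Count columns name arms by letter and were matched to groups, not to single samples. Genes were filtered with filterByExpr (minimum count 10), leaving 12355. Arm G minus arm D was tested in edgeR 4.0.16 (R 4.3.3) with TMM and a quasi-likelihood fit of all 12 libraries with 4 group means, two-sided, with Benjamini-Hochberg adjustment and a threshold of 0.05. DESeq2 1.42.0 and limma 3.58.1 (voom) were alternatives. The procedure was tested on simulated counts. Levels are TMM-scaled CPM.

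Named were the genes past the threshold, the 8 per direction with the smallest p, up to 4 members of each described list by p and up to 4 without overlap, and key genes. Lists described were the 12 with the largest medians in size and those whose library means did not overlap. The clock, Toll-like receptor and cytokine, hepatocyte, stellate, lipoprotein, bile acid and 4 lipid lists were added after their values were seen. Members and lists were chosen with earlier results of these data known. Promoters are from RefSeq, build GRCr8.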

Additional observations from a re-analysis of the deposited data

Results flagged for a closer look

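Bcl6 and Gfra1 lay on opposite sides of the model libraries in the 2 arms, in every library. For Bcl6, arm D was below and arm G above all 3 model libraries, and the difference between arms was 2.91 on the log2 scale (edgeR adjusted p = 0.114, DESeq2 adjusted p = 2.89e-08). For Gfra1, arm D was above and arm G below them, and the difference was -3.45 (edgeR adjusted p = 0.999, DESeq2 adjusted p = 0.00144). Both arms are set against the same model libraries. Only the 64 named genes were searched for this pattern. Many of them were named for their difference between these arms, which favours it, and its frequency over all genes was not counted.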

How the results depend on the processing

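The arms were compared under 17 alternatives. The count of genes past the adjusted p was 0 with edgeR, 1 (Bcl6) with no filter on low counts, 5 with DESeq2, and 0 to 1 when 1 arm library was left out, the 1 being Bcl6 without G.4. It was 0 under the other alternatives. The count at an unadjusted p under 0.05 was 423, 272 in the 6 arm libraries alone, 242 without M.6 and G.3, 200 with limma-voom, 931 with limma-voom and quality weights, and 157 to 911 when 1 arm library was left out (199 without D.7, 187 without G.3, 889 without G.1). The share higher in arm G among those genes was 71.6%, 70.7% with RLE scaling, 39.8% with the mitochondrial share as a covariate and 20.9% without G.3; the cause was not tested. The antigen presentation median was -1.25 with quality weights. The sinusoidal endothelium median was -0.65 without G.4, and leave-one-out values ran from -0.65 to -0.27. The extracellular matrix median was -0.35 without G.3 and also without M.6 and G.3, and leave-one-out values ran from -0.35 to -0.20. Of 64 named genes, Jun was the only one with a reversed direction, at -0.17 without G.1. No paired analysis was possible because the count columns do not carry the replicate numbers of the labels. At 4869054 nuclear counts, G.3 gives the least precise levels of low genes.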

Other observations

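Immediate early genes, which are induced within minutes of a stimulus, differed within the arms as much as between them. The list mean was 5.08, 3.96 and 4.27 log2 CPM in arm D (D.1, D.4, D.7) and 5.23, 4.89 and 3.68 in G.1, G.3 and G.4. Of 25 genes 19 were higher in arm G, with a median of 0.25, and without G.1 the median was -0.17 with 10 higher, without D.1 0.62, without D.4 0.15 and without G.4 0.56. Jun, a subunit of the AP-1 factor, was at 488, 213 and 356 CPM in arm D and 1119, 434 and 195 in arm G (log2 fold change 0.73, SE 0.57, with -0.17 without G.1, 0.47 without D.4 and 1.13 without G.4). Nr4a1, an orphan nuclear receptor, was at 67.6, 22 and 17.6 CPM in arm D and 101, 136 and 7.41 in arm G (1.19, SE 0.80, with 0.60 without G.3 and 2.04 without D.1), so its lowest and highest values were both in arm G. Junb had 0.43 (SE 0.34), with 0.16 without G.1 and 0.27 without D.4. Klf2, a flow-responsive factor of endothelium, was the only member without overlap, at 11.9, 15.9 and 13.3 CPM in arm D and 8.88, 9.30 and 10.6 in arm G (-0.51, SE 0.34). That is 1 of 25 genes, near the 3.35% of all genes in which every arm G library lay below arm D. None of the immediate early genes passed the test.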
